A study of Rattus norvegicus with 4 samples.

Results

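The genes for the receptors of glutamate, GABA and glycine, the main fast transmitters of the retina, were examined in RNA sequencing of ocular tissue. The animals were Long Evans rats of wild-type genotype, a pigmented strain. Members were chosen by gene symbol: AMPA (Gria), kainate (Grik), NMDA (Grin) and delta (Grid) receptor subunits, metabotropic glutamate receptors (Grm) other than Grm6, GABA-A (Gabra, Gabrb, Gabrg, Gabrd) and rho (Gabrr) subunits, GABA-B subunits (Gabbr) and glycine receptor subunits (Glra, Glrb). This rule found 46 of the 14485 genes with values, of which 41 are reported here. Counts, sums and medians of members cover these 41, and other receptor genes were not analysed here. The labels name an eye group and a retina group, each untreated as far as they say, with 2 technical replicates per tissue and RNA of 5 rats pooled for each library. The labels do not give the animals' age or sex. Each tissue had 1 column of values, called its library here, so no difference has a replicate check and no p-value is given. It is not known whether the column pools its tissue's replicates or holds 1 of them, so counting intervals refer to the reads behind the column, whichever these were. The tissue label sets eye apart from retina, although the description of all 4 samples speaks of retina mRNA. Values are RPKM, that is reads per length of the gene and per total of the library. The unit was inferred from the values. The values can be compared between genes of a library, but between libraries the comparison depends on the total used for scaling. The totals used for scaling, inferred from the values, were 28071917 reads for eye and 51944762 for retina. With these totals a gene of equal level rested on 1.85 times as many reads in retina. The fewest reads behind a member were 14 in eye and 29 in retina, both for Gria1, whose true reads may be a multiple of these.

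Glutamate carries the signal from photoreceptors to bipolar cells and on to ganglion cells. OFF bipolar cells receive it through AMPA and kainate channels, ON bipolar cells through the metabotropic receptor encoded by Grm6, and amacrine and ganglion cells through AMPA and NMDA channels. GABA and glycine, released by amacrine cells, act back on bipolar, amacrine and ganglion cells through pentameric chloride channels, and the rho subunits form the slow GABA channels that are characteristic of bipolar cell terminals.

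The sequences upstream of the annotated gene start are shown for the rho genes, which include the most abundant members, and for Grin2c, Grik5 and Grik3, which are among those lower in the eye library. They come from RefSeq for the rat assembly GRCr8, which is not the build of the deposited values, and 30 of the 41 members had an entry. Each window holds the 250 bases before the start, and an annotated start is not always the start used in retina. Capitals mark any of 3 motifs on either strand: the GC box GGGCGG bound by Sp1, the homeobox motif TAATCC bound by Crx and Otx2, and the TATA box TATAAA. No motif contains another, and none of the marked matches overlap.
Gabrr1 (GRCr8 chr5:52320225-52320474, plus strand): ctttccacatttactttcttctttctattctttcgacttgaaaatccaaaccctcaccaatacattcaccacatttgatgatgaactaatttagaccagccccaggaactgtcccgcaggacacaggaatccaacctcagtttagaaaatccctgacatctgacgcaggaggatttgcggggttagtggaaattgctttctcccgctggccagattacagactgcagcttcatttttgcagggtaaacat
Gabrr2 (GRCr8 chr5:52248228-52248477, plus strand): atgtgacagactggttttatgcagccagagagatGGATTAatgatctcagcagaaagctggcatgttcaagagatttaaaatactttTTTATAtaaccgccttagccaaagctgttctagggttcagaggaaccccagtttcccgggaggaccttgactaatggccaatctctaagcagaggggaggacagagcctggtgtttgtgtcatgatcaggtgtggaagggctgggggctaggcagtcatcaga
Gabrr3 (GRCr8 chr11:54424467-54424716, minus strand): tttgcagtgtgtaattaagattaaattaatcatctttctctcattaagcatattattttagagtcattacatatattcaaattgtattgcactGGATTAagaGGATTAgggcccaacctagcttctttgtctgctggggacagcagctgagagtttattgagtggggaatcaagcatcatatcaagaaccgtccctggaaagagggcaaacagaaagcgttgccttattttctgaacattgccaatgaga
Grin2c (GRCr8 chr10:101005139-101005388, minus strand): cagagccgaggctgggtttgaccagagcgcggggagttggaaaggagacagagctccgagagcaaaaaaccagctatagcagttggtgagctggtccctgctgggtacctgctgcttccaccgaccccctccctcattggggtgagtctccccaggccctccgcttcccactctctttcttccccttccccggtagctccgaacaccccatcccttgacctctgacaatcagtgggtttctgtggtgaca
Grik5 (GRCr8 chr1:89794910-89795159, minus strand): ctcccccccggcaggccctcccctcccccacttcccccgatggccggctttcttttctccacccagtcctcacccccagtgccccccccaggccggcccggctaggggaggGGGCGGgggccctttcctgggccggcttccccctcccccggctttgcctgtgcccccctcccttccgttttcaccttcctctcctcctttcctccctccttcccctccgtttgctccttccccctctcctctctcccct
Grik3 (GRCr8 chr5:143052192-143052441, plus strand): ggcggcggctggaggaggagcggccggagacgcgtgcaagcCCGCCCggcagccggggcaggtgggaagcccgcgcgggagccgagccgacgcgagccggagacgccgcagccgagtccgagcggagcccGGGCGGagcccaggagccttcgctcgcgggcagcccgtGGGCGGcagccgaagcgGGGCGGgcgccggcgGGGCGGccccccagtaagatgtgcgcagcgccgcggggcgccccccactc
The GC box occurred in 12 of the 30 member windows (40%) and in 30.5% of all 33469 windows of this length. The set of all windows was not limited by gene type, so it is not matched to the receptor genes. TAATCC was in 3 member windows (10%), those of Gabrr2, Gabrr3 and Glra3, against 6.34% of all, and TATAAA in 3 (10%), those of Gabra3, Gabrr2 and Glra2, against 12.9%. Gabrr3 held TAATCC at 2 places and Gabrr1 did not hold it, while Grik3 held 5 GC boxes and Grin2c none of the 3 motifs. A match describes these letters and is not evidence of binding.

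All 41 genes had reads in both libraries. Levels ran from 0.485 (Gabra5) to 60.4 RPKM (Gabrr2) in retina, with a median of 5.59 RPKM, and from 0.428 to 33.9 RPKM for the same genes in eye, with a median of 3.3 RPKM. The median of all genes tested was 9.63 RPKM in retina and 10.1 RPKM in eye. In retina 9 members exceeded 10 RPKM: Gabrr2, Gabrr1, Gabbr1, Grin1, Glrb, Grik5, Grik1, Gabbr2 and Gria2, in this order. The counting intervals of neighbours in that order did not overlap, except between Glrb and Grik5 and between Grik5 and Grik1. In eye the order began with Gabrr2, Gabrr1, Gabbr1 and Glrb, all apart, and Grin1 came next, its interval overlapping that of Grik1. The summed level of the 41 members was 404 RPKM in retina and 238 RPKM in eye.

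**Figure D1:**
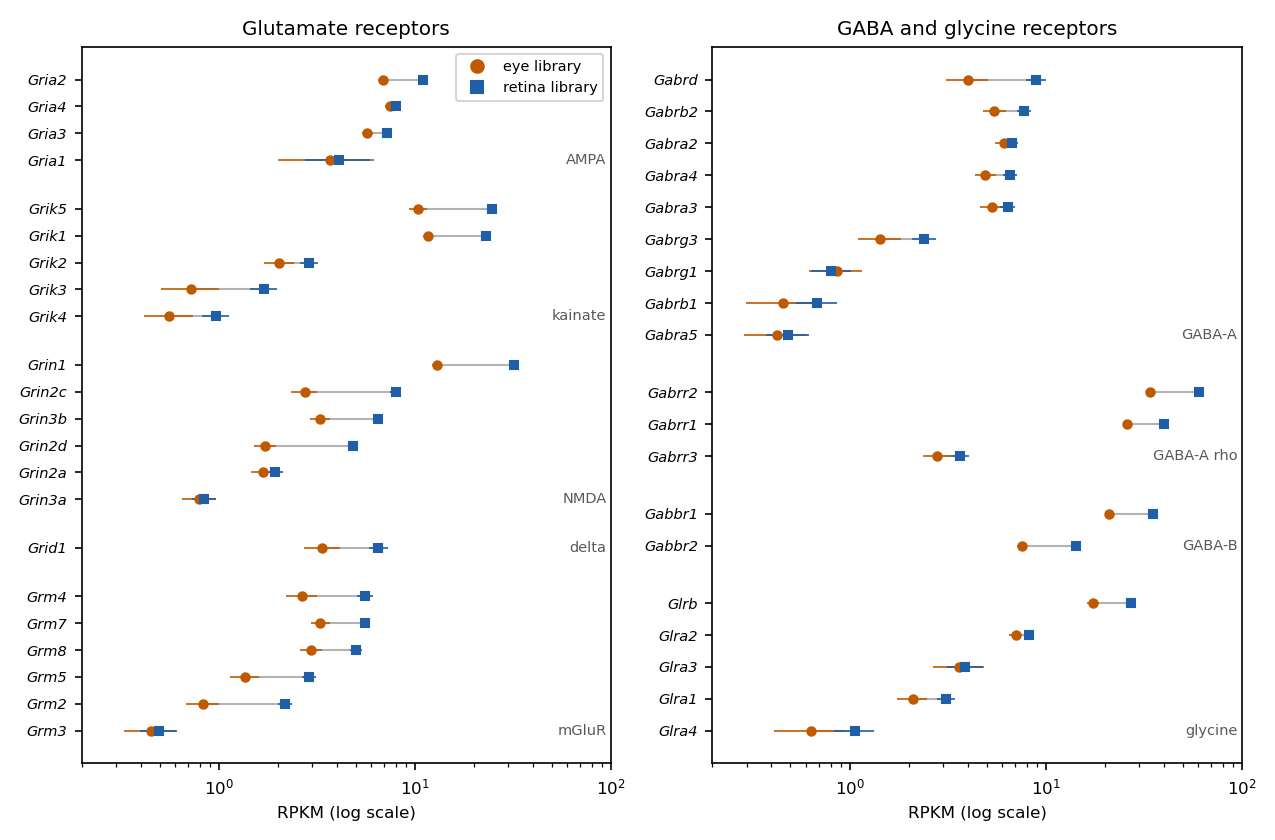
Levels of the 41 receptor genes in RPKM (log axis) in the eye library (circles) and the retina library (squares), grouped by family and ordered by retina level. Horizontal bars are exact 95% counting intervals within the library. A reader should see that the square lies to the right of the circle for 40 genes, the exception being Gabrg1. The plot shows the deposited values only. With totals that leave out lens genes, which are not plotted, retina was higher for 33 genes.

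The eye library held less of nearly every receptor gene. Retina had the higher value for 40 of 41 members, or 33 with totals that leave out lens genes, and for 35 of the 35 with at least 1 RPKM in either library, against 50.7% of all 13259 genes tested. The count of 35 was 31 with totals that leave out lens genes. The share of 50.7% belongs to the deposited values only, and the matching share without lens genes was not counted. In that setting the median log2 fold of all genes was 0.18, toward higher values in eye. Folds in the text are retina over eye ratios of the deposited values. A gene was called when log2((eye + 0.1) / (retina + 0.1)) passed 2-fold in either direction. By this rule 9 of the 35 members (25.7%) were lower in the eye library, and 7.95% of all genes were, while 0 members were higher and 17.8% of all genes were. The count of 9 was 5 without lens genes in the totals, 4 with 1 added and 26 with equal summed values, settings in which 4.20%, 4.94% and 32.8% of all genes were lower. The calls of Grik3, Grm4, Grm5 and Gabrd were lost both without lens genes in the totals and with 1 added, and that of Grm2 with 1 added. The median log2 fold was -0.71 for the 35 members and -0.01 for all genes tested. With totals that leave out lens genes these medians were -0.53 and 0.18. The members were packed between -1.51 and -0.09, and 26 of 35 were not called. The 6 members below 1 RPKM in both libraries were Grik4, Grin3a, Grm3, Gabra5, Gabrb1 and Gabrg1. Exact 95% intervals of the fold, which cover counting error only and compare the 2 libraries rather than the tissues, lay above 1 for 31 members and included 1 for 10. For 5 members (Grik5, Grin1, Grin2c, Grin2d and Grm2) the whole interval lay above 2, and for 13 it included 2. These intervals use the inferred totals and do not cover the choice of scaling. In bulk tissue fewer cells of a type and less RNA per cell cannot be told apart.

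Tissues other than retina were present in the eye library. Of the marker genes with values, 14 of 14 lens genes, 5 of 6 of the corneal and conjunctival epithelium, 8 of 10 tested skeletal muscle genes, 9 of 9 myelin genes and 5 of 5 tested genes of the pigment epithelium were called higher there. Among all genes tested 17.8% were called higher in eye. Values were missing for some listed markers, with 14 of 21 lens genes and 6 of 8 corneal and conjunctival genes having them. The lens markers took 12.5% of the reads of the eye library and 0.138% of those of retina. The retinal neuron lists had median log2 folds of -0.82 for bipolar cells, -0.84 for amacrine cells, -0.66 for ganglion cells and -1.01 for rods, beside -0.71 for the receptors. The 4 horizontal cell markers went both ways, with Lhx1 and Onecut1 called lower in eye (2.58-fold and 2.64-fold) and Calb1 and Prox1 at folds of 0.998 and 0.917. Markers of Mueller glia and astrocytes had a median of -0.13, and of 7 tested Gfap was called, higher in eye at 13.5 RPKM against 6.52 RPKM in retina. None of these retinal markers was listed at 0 in either library. Of 9 listed markers of peripheral neurons 5 had values, all but Calca higher in retina, where Prph was at 53.8 RPKM against 28.0 RPKM in eye. The part of other tissues in the receptor values was not tested.

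**Figure D2:**
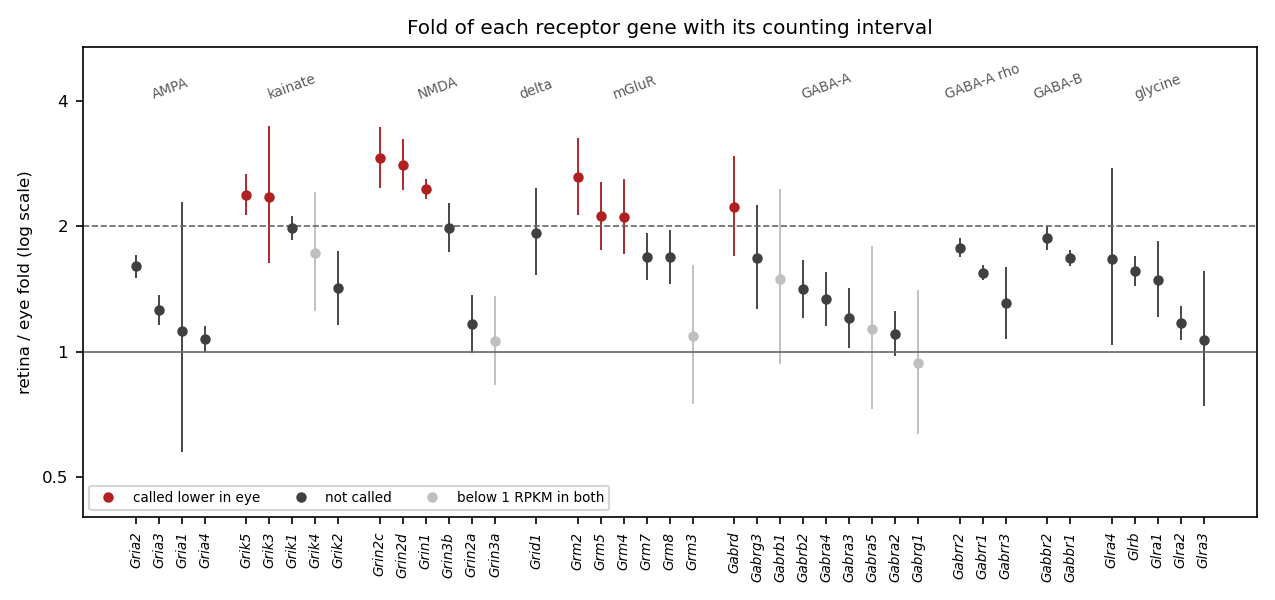
Retina over eye fold (log axis) of each receptor gene by family, with the exact 95% counting interval as a vertical bar, a solid line at 1 and a dashed line at 2. The 9 called genes lie in the kainate, NMDA, mGluR and GABA-A families, and Grin2c is the highest at 2.92.

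NMDA receptor genes had the largest ratio of summed levels among the AMPA, kainate, NMDA, rho, GABA-B and glycine receptor genes. The summed level of the 6 NMDA genes reported was 54.1 RPKM in retina and 23.2 RPKM in eye, a ratio of 2.33. Of 5 tested subunits 3 were called lower in eye, beside 7.95% of all genes tested. Grin1, the subunit that every NMDA receptor contains, was at 31.9 RPKM in retina and 13.0 RPKM in eye, 2.46-fold apart (interval 2.33 to 2.61). Grin2c, a subunit of receptors with weak magnesium block, was at 8.01 RPKM in retina and 2.74 RPKM in eye, 2.92-fold apart (interval 2.48 to 3.46), the largest fold of the 41. On the log2 scale with 0.1 added only 0.988% of all genes tested lay at or below it. Grin2d, whose receptors close slowly, was at 4.85 and 1.73 RPKM, 2.81-fold apart (interval 2.45 to 3.24).

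The other NMDA subunits had smaller folds. Grin2a, a subunit of fast synaptic receptors, was at 1.95 RPKM in retina and 1.68 RPKM in eye, and its fold of 1.16 (interval 0.990 to 1.37) did not overlap those of Grin1, Grin2c and Grin2d. Among the 3 Grin2 genes reported here, Grin2a thus had 13.2% of the summed level in retina and 27.3% in eye, and Grin2c had 54.1% and 44.6%. These shares cover the 3 genes only. Of the glycine-binding Grin3 subunits, Grin3b was at 6.53 RPKM in retina and 3.29 RPKM in eye, a fold of 1.98 that fell just short of the call, while Grin3a was at 0.844 and 0.797 RPKM with an interval (0.832 to 1.36) that included 1.

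Kainate receptor genes were split by level. Grik5, a high-affinity partner subunit, and Grik1, the principal kainate subunit of OFF bipolar cells, had 89.6% of the summed kainate level in retina. Grik5 was at 24.9 RPKM in retina and 10.4 RPKM in eye, 2.38-fold apart (interval 2.13 to 2.68), and was called. Grik1 was at 23.1 and 11.7 RPKM, a fold of 1.98 (interval 1.85 to 2.12) just under the threshold. In retina their counting intervals overlapped, so their order is not resolved by the reads. Grik3 was called at a low level, with 1.71 RPKM in retina and 0.725 RPKM in eye, and its interval ran from 1.63 to 3.49. Grik2 (2.88 and 2.03 RPKM) and Grik4 (0.966 and 0.559 RPKM) had folds of 1.42 and 1.73. The summed kainate level was 53.5 RPKM in retina, next to 54.1 RPKM for NMDA and 30.5 RPKM for AMPA subunits.

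AMPA receptor genes, which carry most fast excitation, differed least in summed level among these 6 families. The sums were 30.5 RPKM in retina and 23.8 RPKM in eye, a ratio of 1.28. Of 4 genes 0 were called, a count that does not set them apart from the 7.95% of all genes that were lower in eye. Gria2, the subunit that limits calcium entry, was at 11.1 RPKM in retina and 6.90 RPKM in eye, 1.60-fold apart (interval 1.51 to 1.71). Gria4 was at 8.03 and 7.48 RPKM, a fold of 1.07 whose interval (1.00 to 1.15) reached 1. Gria3 was at 7.23 and 5.74 RPKM, and Gria1 at 4.14 and 3.69 RPKM. The highest AMPA subunit was therefore Gria2 in retina, with 36.3% of the family, and Gria4 in eye, with 31.4%, where the intervals of both overlapped. For Gria1 the smallest whole-read solution was only 29 and 14 reads, so its interval (0.573 to 2.29) is probably too wide as a measure of counting error.

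Grid1, a delta subunit that binds cerebellins at synapses and is grouped here by sequence family, was at 6.53 RPKM in retina and 3.38 RPKM in eye, a fold of 1.93 (interval 1.53 to 2.47) that was not called.

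The metabotropic glutamate receptor genes reported, which do not include Grm6, were low, from 0.495 RPKM (Grm3) to 5.59 RPKM (Grm4) in retina. Of 5 tested genes 3 were called lower in eye, beside 7.95% of all genes tested. Grm2, a presynaptic receptor of group II found on starburst amacrine cells, was at 2.19 RPKM in retina and 0.832 RPKM in eye, 2.63-fold apart (interval 2.13 to 3.26). Grm3, its close relative, was at 0.495 and 0.453 RPKM with an interval (0.75 to 1.61) that included 1. Grm5, a group I receptor, which raises cell calcium, was at 2.89 and 1.36 RPKM and was called at 2.12-fold (interval 1.76 to 2.56). The group III genes Grm4 (5.59 and 2.65 RPKM), Grm7 (5.58 and 3.3 RPKM) and Grm8 (5.02 and 2.97 RPKM) had neighbouring levels with overlapping intervals in both libraries. Grm4 was called at 2.11-fold (interval 1.72 to 2.60). The calls of Grm4 and Grm5 were lost both without lens genes in the totals and with 1 added, and that of Grm2 with 1 added. Grm7 and Grm8 were both 1.69-fold apart, and the difference between these genes was not tested.

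**Figure D3:**
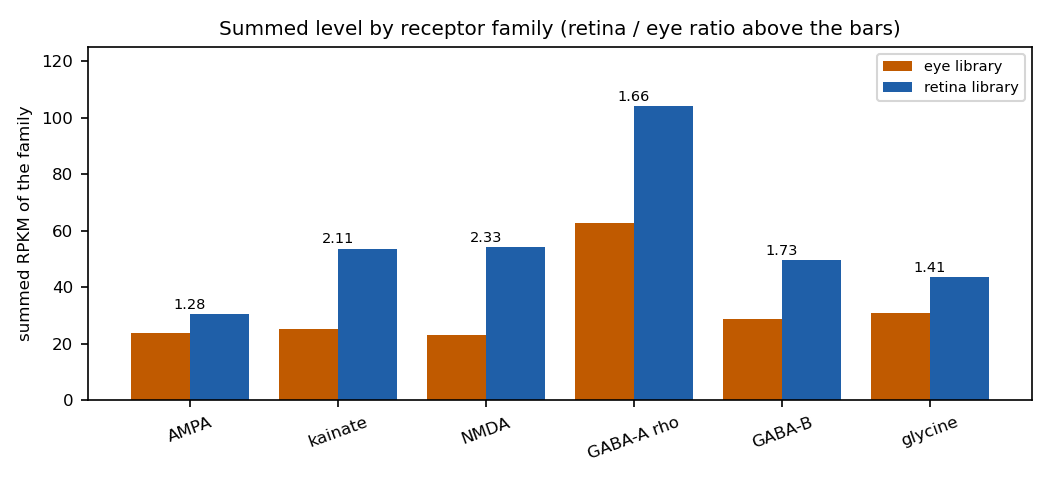
Summed RPKM of the members of 6 receptor families in the eye and retina libraries, as bars from 0, with the retina over eye ratio printed above each pair. The rho genes have the tallest bars, and the ratio runs from 1.28 for AMPA to 2.33 for NMDA subunits.

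Of the 6 tested GABA-A receptor genes reported, 1 was called, beside 7.95% of all genes lower in eye and 17.8% higher. A count of 1 among 6 does not set this family apart from all genes. Gabrd, the delta subunit of receptors outside synapses, was the GABA-A gene called lower in eye, at 8.93 RPKM in retina and 4.01 RPKM in eye, 2.23-fold apart. Its interval of 1.70 to 2.95 rests on a smallest solution of 276 and 67 reads. The alpha subunit genes Gabra2, Gabra4 and Gabra3 lay close together, between 6.40 and 6.77 RPKM in retina and between 4.93 and 6.14 RPKM in eye. Their folds were 1.10, 1.34 and 1.20, and the retina intervals of neighbours overlapped. Gabrb2, a beta subunit, was at 7.73 RPKM in retina and 5.47 RPKM in eye, 1.41-fold apart (interval 1.21 to 1.66). Among gamma and other beta subunits, Gabrg3 was at 2.41 and 1.44 RPKM and Gabrb1 at 0.685 and 0.460 RPKM. Gabra5, a subunit best known from hippocampus, was the lowest member at 0.485 and 0.428 RPKM. Gabrg1, a subunit also found in glia, was the sole member with its higher value in eye, at 0.861 RPKM against 0.809 RPKM in retina, on 42 and 73 reads and with an interval (0.634 to 1.41) that included 1 and a direction that turned with equal summed values.

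The rho genes together had 104 RPKM in retina and 62.6 RPKM in eye, a ratio of 1.66. Gabrr2 was the most abundant of the 41 members in both libraries, at 60.4 RPKM in retina and 33.9 RPKM in eye, 1.78-fold apart (interval 1.68 to 1.88). Gabrr1 was at 40.1 and 25.9 RPKM, 1.55-fold apart (interval 1.48 to 1.61). Both folds were below the call, and their intervals did not overlap. Gabrr3 was far lower, at 3.65 and 2.79 RPKM, 1.31-fold apart. The upstream windows printed above differ between these 3 genes in TAATCC matches, with 0 in Gabrr1, 1 in Gabrr2 and 2 in Gabrr3, an order that does not follow their levels.

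Both GABA-B genes were well represented. The 2 subunits form an obligate pair, in which Gabbr1 binds GABA and Gabbr2 couples to G proteins. Gabbr1 was at 35.2 RPKM in retina and 21.0 RPKM in eye, 1.68-fold apart (interval 1.60 to 1.75). Gabbr2 was at 14.3 and 7.62 RPKM, 1.87-fold apart (interval 1.75 to 2.00), so Gabbr1 stood higher than its partner in both libraries.

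Glycine receptor genes summed to 43.5 RPKM in retina and 30.8 RPKM in eye, a ratio of 1.41. Of 5 genes 0 were called, which does not set them apart from the 7.95% of all genes that were lower in eye. Glrb, the beta subunit that binds gephyrin, was at 27.2 and 17.4 RPKM, 1.56-fold apart (interval 1.44 to 1.70), and had 62.5% of the family in retina. Glra2 was the highest alpha gene, at 8.24 RPKM in retina and 7.04 RPKM in eye, a fold of 1.17 (interval 1.06 to 1.29). Glra3, a subunit of amacrine and ganglion cell synapses, was at 3.88 and 3.63 RPKM, and its interval (0.742 to 1.56) included 1. Glra1, the subunit of fast glycine synapses on bipolar and ganglion cells, was at 3.12 and 2.10 RPKM, 1.49-fold apart. Glra4 was at 1.07 and 0.639 RPKM on 74 and 24 reads. The alpha genes together differed by 1.22-fold and Glrb by 1.56-fold.

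Several receptor genes are neighbours on the rat genome, which the choice of members did not use. In the GRCr8 annotation, 10 members stood in 4 runs with at most 1 other protein-coding gene between neighbours. On chromosome 1, Gabrg3 and Gabra5 were at 2.41 and 0.485 RPKM in retina, 4.97-fold apart. On chromosome 14, Gabrb1, Gabra4, Gabra2 and Gabrg1 were at 0.685, 6.59, 6.77 and 0.809 RPKM, a 9.88-fold range. Levels within these 2 runs differed by more than their retina over eye folds, which lay between 0.939 and 1.68. Gabrr2 and Gabrr1 adjoin on chromosome 5 and were 1.51-fold apart in retina. Gria2 and Glrb adjoin on chromosome 2 although they serve excitation and inhibition, and their folds were 1.60 and 1.56.

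**Figure D4:**
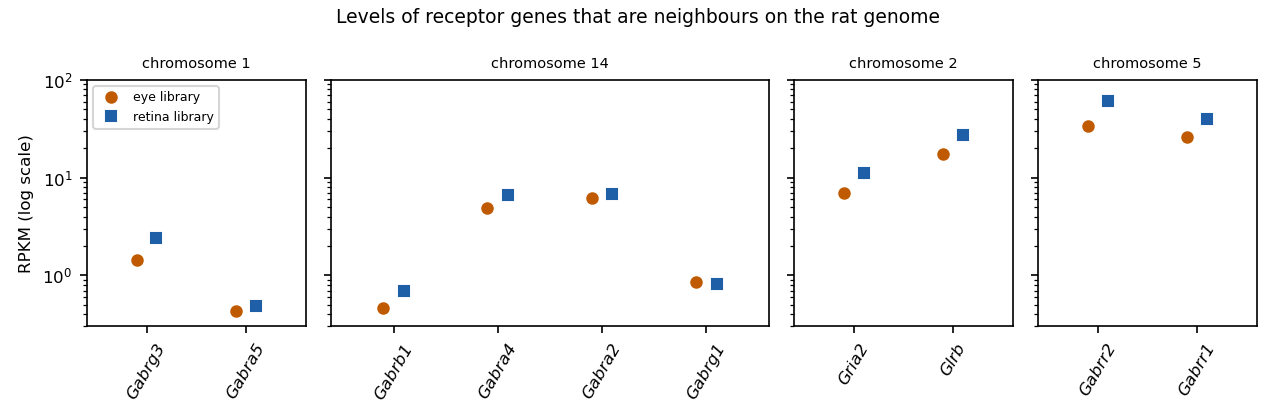
RPKM (log axis) of the 10 receptor genes that neighbour another, in their order along each rat chromosome, in the eye (circles) and retina (squares) libraries. Levels spread most on chromosome 14, 13.4-fold in eye, whereas the rho genes on chromosome 5 were 1.31-fold apart in eye, less than their own retina over eye folds of 1.55 and 1.78.

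Other genes of these synapses were taken from 5 lists and read in the same way, beside 7.95% lower and 17.8% higher among all genes tested. Of 15 tested transmitter transporters 5 were lower in eye and 0 higher, with a median log2 fold of -0.55. Without lens genes in the totals 3 were lower, beside 4.20% of all genes. Slc17a7, which fills vesicles with glutamate in photoreceptors and bipolar cells, was at 727 RPKM in retina and 270 RPKM in eye. Slc38a3, a glutamine transporter, was at 397 and 180 RPKM. The others called were Slc32a1, which loads GABA and glycine into vesicles (62.7 and 23.7 RPKM), Slc1a7, a carrier that takes up glutamate at those same terminals (96.3 and 37.8 RPKM), and Slc6a9, the plasma membrane carrier for glycine, at 2.11-fold. Slc6a5, the glycine carrier of spinal cord and brainstem, was near 0 in both libraries (0.0323 and 0.0217 RPKM).

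Of 14 tested genes of transmitter synthesis and breakdown 0 were lower and 1 was higher, with a median of -0.28. These counts are no larger than the shares of all genes, 7.95% and 17.8%, would give. Got1 and Got2, aspartate aminotransferases that make glutamate, were at 207 and 105 RPKM in retina and 142 and 88.8 RPKM in eye. Gad1, which makes GABA, was at 103 and 57.2 RPKM, a fold of 1.8 that was not called. Shmt1, a serine hydroxymethyltransferase, was the higher one, at 3.48 RPKM in eye and 0.282 RPKM in retina.

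Auxiliary subunits and organisers of ionotropic glutamate receptors had 7 of 23 lower in eye and 0 higher, with a median of -0.80, against 7.95% and 17.8% of all genes. The 7 were 2 without lens genes in the totals and 4 with 1 added, beside 4.20% and 4.94% of all genes. Cacng7, an auxiliary subunit of AMPA receptors, was at 53.7 RPKM in retina and 26.1 RPKM in eye, and Nptx2, a pentraxin that gathers AMPA receptors, at 48.7 and 21.3 RPKM. Cacng2, Cacng4, Cnih2, Gsg1l and Shisa7, which also bind AMPA receptors, were among the 7, with folds from 2.06 to 2.48. Cacng3, Cacng5, Cacng8, Cnih3 and Shisa6, of the same kinds, were not called, with folds from 1.39 to 1.83. Of the 23 genes 19 had the higher value in retina. Cbln2, Nptx1, Neto2 and Lrrtm2 had it in eye, with folds from 0.642 to 0.947, and were not called.

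Scaffolds of glutamate synapses had 6 of 23 lower and 1 higher, with a median of -0.73, against 7.95% and 17.8% of all genes. The 6 were 2 without lens genes in the totals and 3 with 1 added, beside 4.20% and 4.94% of all genes. Dlg4, the main postsynaptic scaffold and also a protein of photoreceptor terminals, was at 224 RPKM in retina and 95.5 RPKM in eye, 2.35-fold apart (interval 2.29 to 2.41). Gripap1, a partner of AMPA receptor traffic, was at 36.5 and 24.7 RPKM. Homer2, which links metabotropic receptors, was the higher one, at 15 RPKM in eye and 1.83 RPKM in retina, 8.22-fold apart. Scaffolds and partners of GABA and glycine receptors had 4 of 19 lower and 1 higher, with a median of -0.46, again beside 7.95% and 17.8% of all genes. The 4 were 1 without lens genes in the totals and 2 with 1 added, beside 4.20% and 4.94% of all genes. Gabarapl1 (201 RPKM in retina and 164 RPKM in eye) and Gabarap (75.1 and 138 RPKM), of GABA-A receptor traffic and autophagy, were not called, and Gphn, gephyrin, was at 20.2 and 14.6 RPKM. Kctd12, an auxiliary subunit of GABA-B receptors, was the higher one, at 9.88 RPKM in eye and 3.46 RPKM in retina, while its relative Kctd16 was lower, at 1.04 and 2.45 RPKM.

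**Figure D5:**
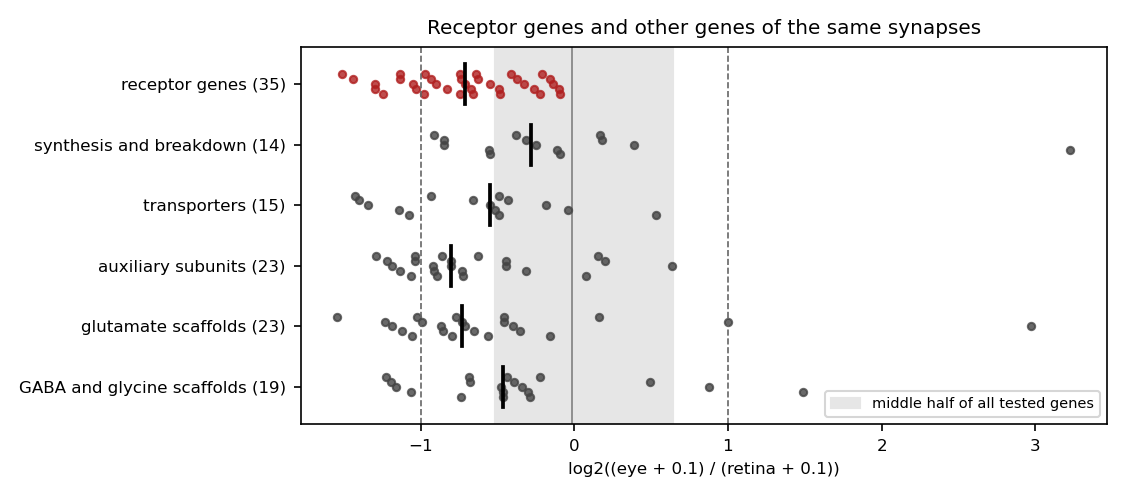
Log2((eye + 0.1) / (retina + 0.1)) of the tested receptor genes and of 5 lists of other synaptic genes, 1 point per gene, with the list median as a thick bar and the number of genes in brackets. The grey band spans the quartiles of all tested genes (-0.52 to 0.64), dashed lines mark 2-fold, and the receptor points all lie left of 0.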

How the data were processed

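RNA sequencing values were deposited for eye and retina of Long Evans rats, 1 column per tissue, for 2 labelled technical replicates each. The submitters' processing notes name the tools GSNAP and HTSeq and the rat build rn4. Versions, annotation, strand use and the treatment of reads shared by similar or overlapping genes are not stated there. The authors' deposited values are taken as RPKM, inferred from the values, since neither labels nor headers name the unit.

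Of 14533 rows, 7 without a value were dropped, and where a name stood on several rows the finer decimals were kept. If each value is whole reads over a whole length and a library total, the totals are 28071917 reads for eye and 51944762 for retina. With them 98.4% of 13980 genes came out at whole reads for eye and for retina, within the rounding of the printed values. Of 1260 genes with fine decimals 910 fitted this eye total and 704 one 3 times as large. The smallest length equalled the reference gene span for 126 genes, for 0 with totals 2 or 3 times as large and for 11 with totals 0.5 times as large. The recovery was tested on simulated data. Reads are the smallest that fit, which can only widen the intervals, most of all for the 4 members with smallest lengths under 1000 bases. The reads carry no molecular identifiers, and the intervals count each read as independent. Duplicate reads and spread between preparations are not covered and would make the intervals too narrow.

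Folds printed are ratios of deposited values. Calls used log2 values with 0.1 added, a minimum of 1 RPKM in either library and 2-fold. Intervals are exact (Clopper-Pearson for folds, Poisson for levels) from Python 3.11.15 and scipy 1.17.1. List genes were also matched through synonyms of the GRCr8 table. The 41 members reported are all named, and some genes of the rule and lists are not reported here. In each list the 2 genes of highest mean and those higher in eye were named by rule, and others were chosen after their values were seen. The members and lists were chosen with earlier results of these data known.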

Additional observations from a re-analysis of the deposited data

How the results depend on the processing

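No paired analysis was possible because each tissue has 1 column of values. Replicates could not be left out for the same reason. The alternatives for the 5 synaptic lists were chosen after seeing the data. The count of members lower in eye, 9 of 35 in the report, was 4 with 1 added (Grik5, Grin1, Grin2c and Grin2d). It was 5 with totals without lens genes (Grik5, Grin1, Grin2c, Grin2d and Grm2). These counts stood beside 4.94% and 4.20% of all genes. With a minimum of 5 RPKM it was 5 of 23 tested members, beside 8.19% of all genes. At 4-fold it was 0, beside 0.0905% of all genes. With equal summed values it was 26 of 35, beside 32.8% of all genes. With 0.01 added, no minimum, a trimmed mean, a median of ratios, recovered reads or without rows of few decimals it was 9. In each of these settings 0 members were higher. The scaling without lens genes moved log2 ratios by 0.19 and equal summed values by -0.64 before 0.1 was added. Relative to all genes the members' median stayed between -0.73 and -0.60. The median itself was -1.30 with equal summed values, and the log2 ratio of the summed members went from -0.76 to -1.40. Without lens genes in the totals Gria1, Gria4, Grin3a, Grm3, Gabra2, Gabra5 and Glra3 joined Gabrg1 with higher values in eye. With equal summed values Gabrg1 was also lower in eye.

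With equal summed values, which made 32.8% of all genes lower, lower list genes were 6 for synthesis and breakdown, 12 for transporters, 18 for auxiliary subunits, 18 for glutamate scaffolds and 12 for GABA and glycine scaffolds. At 4-fold, where 0.0905% of all genes were lower, the last 4 had 0 each. Without lens genes, where 4.20% were lower, they had 3, 2, 2 and 1. With 1 added, where 4.94% of all genes were lower, auxiliary subunits had 4, glutamate scaffolds 3 and GABA and glycine scaffolds 2. Counting limits the precision of low members such as Glra4 and Grik3. The reads of Gria1, Glra3, Gabrd and Grid1 may be a larger multiple of those found.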
